A study of Homo sapiens with 34 samples.

Results

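The cells described here are the CD43- stroma that remained beside the forming blood cells in cultures of H1, a human embryonic stem cell line, and the comparison is of these cells at day 16 with those at day 6 of differentiation. Members were taken by their sample labels alone: 3 day 6 libraries of CD43- cells and 3 day 16 libraries of cells negative for both CD43 and CD45, which makes 6 of the 34 samples of the series. The study differentiated H1 cells under defined conditions with BMP4 and VEGF in the early days and VEGF alone afterwards, without added haematopoietic cytokines, and sequenced RNA of undifferentiated cells, of unsorted cells of the early days, and of cells sorted by CD43 at days 6, 9, 12 and 16. Both groups come from the same line and medium, carry no engineered allele, and differ in age by 10 days and in the sort, since CD45 was part of the gate at day 16 and not at day 6. The labels give 3 replicates per population compared here, and the methods call them independent biological replicates.

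CD43, encoded by SPN, is a surface sialomucin that marks cells committed to blood in pluripotent stem cell cultures, and CD45, encoded by PTPRC, is a phosphatase of most mature blood cells. In such cultures blood progenitors arise from endothelium, whereas the cells left negative hold mesenchymal, vascular and other mesodermal or extra-embryonic cells that lay down matrix and secrete signals. In the embryo, stroma of this kind in the yolk sac and around the aorta supplies the ligands and the matrix that surround the forming blood.

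Values were the authors' GC-normalised read counts per gene, rounded to whole numbers and forced to the same distribution in each sample. The highest value was 90700, the median over genes was 197 and 1292 genes were listed at 0 in each sample, so a value acts like a rank and a gene at 90700 could not be measured higher. The depth behind the values is unknown. A gene was called higher or lower when its Benjamini-Hochberg adjusted p from limma was below 0.05 and its fold change, on the log2(value + 1) scale, exceeded 4. On this scale the change of a gene with low values comes out smaller than it is. Because the cells were measured in bulk, fewer cells of a type and less RNA per cell cannot be told apart.

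Of 20255 genes, 19788 reached 10 or more in 3 or more of the samples fitted and were tested. In CD43- cells 2607 of them (13.2%) were called between the days, 1368 higher at day 16 (6.91%) and 1239 lower (6.26%). The median log2 fold change over all genes tested was -0.05. For CD43+ cells 21.3% of the genes tested were called between these days, 2084 higher and 2121 lower. The change of CD43- cells differed from that of CD43+ cells, at the same thresholds, for 19.2%, with 1918 differences upward and 1880 downward. Counts of calls in the gene lists below are to be read beside these shares. The day 6 and day 16 values of CD43- cells did not overlap for 2555 of the genes called in these cells. Over all 19788 genes tested, 5710 lay wholly higher and 6229 wholly lower at day 16, so a lack of overlap was common. Among protein-coding genes 1177 were called higher and 845 lower of 16324, and among long intergenic non-coding RNAs 78 were called higher and 168 lower of 1380. Low values made up many calls: 695 of the genes called higher had a day 6 mean below 10, 627 of those called lower had a day 16 mean below 10, and with a pseudocount of 10 in place of 1 the calls numbered 1330. Which libraries went to which of the sequencing companies named in the methods is not given in the sources used here, so a difference between companies was not tested.

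The replicates were not alike in every gene group. Pearson's r on the log2(value + 1) scale was 0.9656 to 0.984 between day 6 replicates, 0.9835 to 0.9874 between day 16 replicates, and 0.8983 to 0.9118 between a day 6 and a day 16 library. At day 6, replicate 1 held the highest value for 29 of the 32 endothelial genes tested, and the summed value of these genes ranged from 68615 to 320349 over the 3 libraries. At day 16, replicate 2 held the highest value for 13 of the 19 blood cell markers that were called higher, which is 68.4%, against 47.7% of all genes called higher and 31.2% of all genes tested.

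The sort markers came first. SPN read 28, 19 and 49 at day 6 and 84, 328 and 122 at day 16, a log2 fold change of 2.30 (SE 0.37, limma adjusted p = 8.20e-06), and it fell short of a fold of 4 without day 16 replicate 2 (1.73) or without day 6 replicate 2 (1.99). The mean of SPN in day 16 CD43+ cells was 2668. PTPRC read 0, 0 and 2 at day 6 and 18, 42 and 22 at day 16 (log2 fold change 4.20, SE 0.92, adjusted p = 3.59e-04, under a fold of 4 with a pseudocount of 10), while day 16 CD43+ cells read 12655 on average. Both transcripts were therefore far below the CD43+ level in the day 16 CD43- libraries, yet above the day 6 level, with the highest value in replicate 2.

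Transcripts of blood cells were among the largest rises. Among the 30 blood cell markers tested, 19 were called higher and the median log2 fold change was 3.52 (1.88 with a pseudocount of 10), and their summed value went from between 1828 and 3589 at day 6 to between 13953 and 35734 at day 16. MPO, the myeloperoxidase of granulocyte precursors, was listed at 0 in the 3 day 6 libraries and at 4657, 12840 and 8970 at day 16, and it sat at the highest possible value in the day 16 CD43+ cells. LYZ, the lysozyme of myeloid cells, read 32, 26 and 30 at day 6 and 1066, 6253 and 2704 at day 16 (log2 fold change 6.44, SE 1.04, adjusted p = 8.51e-06). Replicate 2 was again highest in both genes, and replicate 1 was lowest.

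Genes of platelets, granules and red cells took part. PPBP, a platelet chemokine, read 1, 0 and 0 at day 6 and 1124, 3606 and 1902 at day 16. PF4, platelet factor 4, read 2, 2 and 1 and then 1062, 3224 and 1582 (log2 fold change 9.39, SE 0.90, adjusted p = 2.55e-09). PRTN3, a serine protease of neutrophil granules, read 0, 1 and 0 and then 760, 4152 and 1824. PRG2, the eosinophil granule protein, and PLEK, the pleckstrin of platelets and leukocytes, repeated this order over the replicates at day 16, with 765, 3658 and 1674 for the former and 435, 1855 and 950 for the latter. HBG2, a fetal globin, read 22 in each day 6 library and 1620, 4148 and 2876 at day 16 (log2 fold change 6.87, adjusted p = 6.87e-07). HBA2, an alpha globin listed at 0 at day 6, read 224, 142 and 484 and thus departed from the order, with its highest value in replicate 3. It shares reads with its near-identical copy HBA1, so its value is uncertain.

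Of these 19 rises, 17 had a day 16 CD43+ mean over 4-fold above the CD43- mean. CD14, the monocyte co-receptor, stood apart with 12, 14 and 34 at day 6 and 5, 2 and 6 at day 16, against a mean of 1181 in day 16 CD43+ cells. The share of blood cells among the cells sorted as negative was not measured, and its part in these rises was not tested. Across all 1368 genes called higher, the day 16 CD43+ mean was over 4-fold above the CD43- mean for 371 (27.1%) and below it for 771 (56.4%), compared with 12.3% and 44.0% of all genes tested. Among genes called lower these shares were 24.9% and 28.3%. The day 16 CD43- mean enters both the call and this ratio, so the shares of rises and falls cannot be compared. The plot of day 16 levels shows blood cell markers on the CD43+ side of the diagonal and matrix genes on the other.

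**Figure D1:**
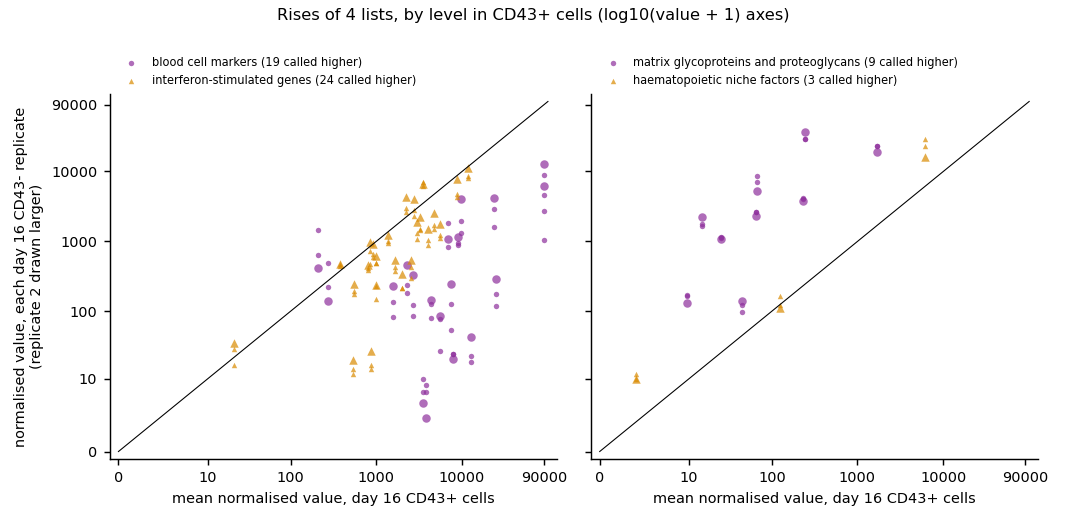
Values of genes called higher at day 16 in 4 lists, with the mean of day 16 CD43+ cells on the horizontal axis and each day 16 CD43- replicate on the vertical axis, both in normalised values on a log10(value + 1) scale, and with replicate 2 drawn larger. Of the 19 blood cell markers 17 lie over 4-fold to the CD43+ side of the line of equality, whereas the day 16 means of the 9 matrix glycoproteins and proteoglycans and the 3 niche factors lie on the CD43- side.

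The largest rises outside the blood markers included interferon-stimulated genes, a serpin and a prostaglandin synthase. IFI44L, an interferon-stimulated gene, was listed at 0 at day 6 and read 2329, 4080 and 2848 at day 16, and IFI44 beside it went from 0 in each library to 470, 989 and 728. SERPINE3, a serpin family member, read 5, 4 and 7 at day 6 and 4954, 7320 and 5188 at day 16 (log2 fold change 9.85, SE 0.58, adjusted p = 7.48e-13), while its mean in day 16 CD43+ cells was 19.3. PTGDS, the lipocalin-type prostaglandin D synthase, read 2, 2 and 6 and then 2894, 2804 and 2974 (log2 fold change 9.50, SE 0.61, adjusted p = 2.84e-12), with 210 on average in day 16 CD43+ cells. The 3 day 16 values of PTGDS lay close together and did not show the order of the blood genes. SECTM1, a secreted and transmembrane protein, read 1, 1 and 3 and then 606, 700 and 676, below its mean of 1086 in day 16 CD43+ cells. F13A1, the coagulation factor XIII A chain found in megakaryocytes and macrophages, read 288, 902 and 508 at day 16 and had a mean of 29607 in day 16 CD43+ cells. Other large rises with a day 16 CD43+ mean below the CD43- mean, picked after their values were seen, were CYP2W1 (14, 10 and 12 at day 6 and 1991, 2234 and 1821 at day 16), SLC34A2, a phosphate transporter (37, 24 and 72, then 3788, 5914 and 4195), and NPHS1, the podocyte protein nephrin (2, 0 and 0, then 192, 254 and 212).

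**Figure D2:**
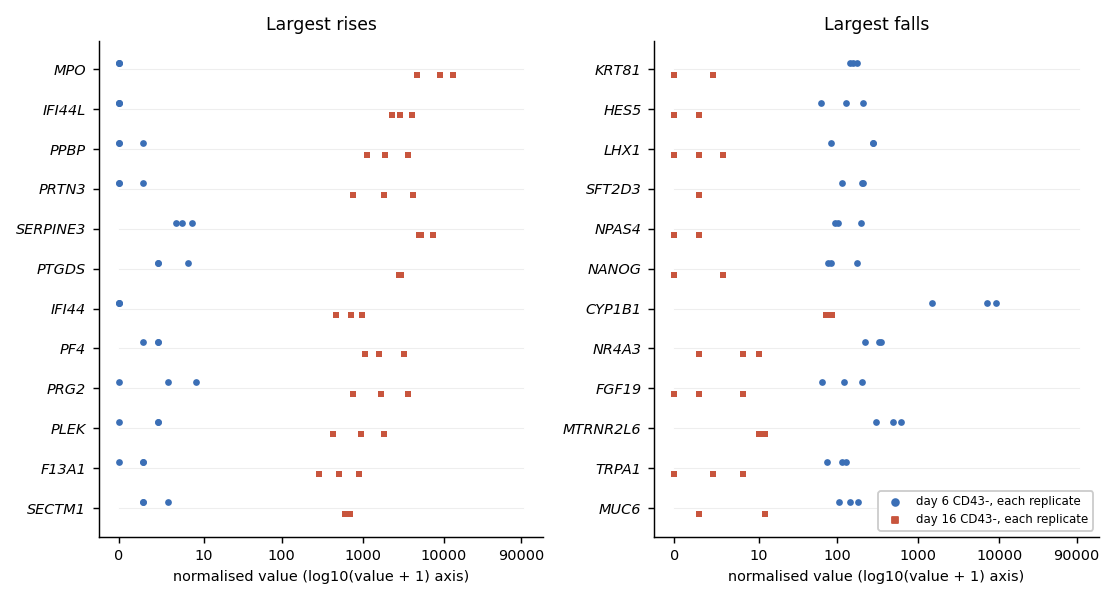
Normalised values of the 12 largest rises and the 12 largest falls among called protein-coding genes, on a log10(value + 1) axis, with blue circles for each day 6 CD43- replicate and red squares for each day 16 CD43- replicate. The groups do not overlap in any of these genes by the rule that chose them, and the day 16 spread is wide for MPO (4657 to 12840) and narrow for PTGDS (2804 to 2974).

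Of 12 fibrillar and fibril-associated collagens, 4 were called higher in CD43- cells, while 6 were called lower in CD43+ cells. The median log2 fold change was 1.58 in CD43- and -1.78 in CD43+ cells, but the former is set by COL1A1 and COL5A1, which were both at the highest value in each day 16 library, and so is compressed by the ceiling. COL3A1 read 90700 in each of the 6 libraries, so no change could be seen in it. COL1A1, the main chain of type I collagen, read 25836, 29000 and 37166 at day 6 and 90700 in each day 16 library. COL12A1, a fibril-associated collagen, read 209, 469 and 74 at day 6 and 3656, 2177 and 3614 at day 16 (log2 fold change 3.98, SE 0.59, adjusted p = 2.74e-06). COL14A1 and COL16A1 rose by 2.75 and 2.49 on the log2 scale. The mean of COL14A1 was 14553 ± 9825 at day 12 (SD, n = 3), above its mean of 1655 at day 16. COL24A1 read 10, 17 and 10 and then 210, 1037 and 474, in the replicate order of the blood markers, and its mean was 9073 in day 16 CD43+ cells.

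Matrix glycoproteins and proteoglycans rose in 9 of 34 cases and fell in 1, with a median log2 fold change of 0.83. DCN, the collagen-binding proteoglycan decorin, read 2177, 1624 and 5043 at day 6 and 29026, 37186 and 29026 at day 16, that is 2948 ± 1835 against 31746 ± 4711 (SD, n = 3; log2 fold change 3.59, SE 0.43, adjusted p = 8.14e-08). OGN, osteoglycin, read 4, 10 and 8 and then 166, 132 and 170. EFEMP1, the fibulin-like matrix protein, read 98, 225 and 64 and then 1658, 2232 and 1777. FBLN5, which organises elastic fibres, read 80, 146 and 202 and then 1166, 1089 and 1136 (log2 fold change 3.08, SE 0.38, adjusted p = 1.77e-07). The 9 rises each had a day 16 CD43+ mean below the CD43- mean. FN1, fibronectin, was at 90700 in each of the 6 libraries, and PRELP, a leucine-rich proteoglycan, read 34, 28 and 58 and then 127, 173 and 171 without passing the fold threshold.

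Of 22 basement membrane genes tested, 2 were called, both higher, beside 13.2% of all genes tested. LAMA2, the laminin alpha 2 chain, read 52, 48 and 37 and then 304, 277 and 808 (log2 fold change 3.15, limma adjusted p = 9.58e-07). Its mean was 4668 at day 12, above the 463 of day 16. COL15A1 read 5641, 2636 and 614 and then 14682, 9724 and 15863 (2.65, adjusted p = 4.22e-03). The call of COL15A1 was lost without day 6 replicate 3, at a log2 fold change of 1.77 and an adjusted p of 0.0542. COL4A1, a main chain of type IV collagen, read 90700, 90700 and 25842 and then 48036, 90700 and 90700, and its estimate of 0.30 became -0.31 without day 6 replicate 3. In CD43+ cells 13 of the 22 genes were called lower, and the change differed between the sorted populations in the direction of CD43- cells for 14 of 22.

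Enzymes that cross-link or remodel matrix were called higher in 5 of 35 cases. Of all genes tested, 6.91% were called higher and 13.2% in either direction. The median log2 fold change of the enzymes was 0.54. P4HA1, a prolyl hydroxylase that stabilises the collagen helix, read 1106, 1280 and 3228 at day 6 and 18776 in each day 16 library (log2 fold change 3.50, SE 0.34, adjusted p = 3.84e-09). LOX, lysyl oxidase, read 744, 800 and 3282 and then 11204, 10085 and 11512, and LOXL4 of the same family read 156, 196 and 232 and then 1247, 1145 and 1148. PLAT, tissue plasminogen activator, read 757, 658 and 1173 and then 5318, 7914 and 6144. SERPINH1, the collagen chaperone HSP47, had the highest mean of the list and read 20412, 20412 and 12840 and then 13319, 12007 and 12840, which overlapped between the days.

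Contractile and mural genes moved in both directions. Of 22 smooth muscle genes, 3 were called higher and 3 lower, and the median log2 fold change was -0.53. DES, the intermediate filament desmin, read 89, 120 and 99 at day 6 and 2157, 1892 and 2616 at day 16 (log2 fold change 4.42, SE 0.31, adjusted p = 1.45e-11). LMOD1, an actin nucleator of smooth muscle, rose by 2.10 on the log2 scale, though without day 6 replicate 1 the estimate was 1.78. MYH11, the smooth muscle myosin heavy chain, read 46, 60 and 60 and then 14, 11 and 6 (log2 fold change -2.37, adjusted p = 4.95e-05), and KCNMB1, a potassium channel subunit of smooth muscle, read 48, 82 and 30 and then 2, 1 and 2. At day 12 the means of MYH11 and KCNMB1 were 48.7 and 54.3. MYH11 was low at days 6 and 16, and its fold was under 4 with a pseudocount of 10. Of 22 pericyte and fibroblast markers 2 were called, beside 13.2% of all genes tested. RGS4, a regulator of G protein signalling found in pericytes, was the largest rise among these markers. It read 653, 474 and 2556 at day 6 and 37190, 29030 and 25876 at day 16 (log2 fold change 5.03, SE 0.62, adjusted p = 1.60e-07). NDUFA4L2, a mitochondrial protein of pericytes, read 7, 12 and 64 and then 436, 359 and 369. VIM, the mesenchymal filament vimentin, read 37182 in each day 6 library and 37182, 29020 and 29020 at day 16.

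Transcription factors of mesenchyme exchanged places. Of 35 tested, 5 were called higher and 6 lower, with a median log2 fold change of 0.05. RUNX2, the osteoblast regulator, read 20, 38 and 24 and then 314, 536 and 378 (log2 fold change 3.87, SE 0.45, adjusted p = 6.91e-08). PRRX2 read 172, 200 and 284 and then 8, 6 and 26, FOXF2 read 82, 140 and 182 and then 3, 8 and 12, and FOXC1 read 2532, 2314 and 639 and then 124, 114 and 78. HAND1, a factor of lateral and extra-embryonic mesoderm with the highest mean of the list, read 5556, 5638 and 10436 and then 8678, 7486 and 7773. Of 18 cardiac genes, ACTC1, cardiac actin, fell from 9896, 22836 and 20418 to 756, 850 and 845 (log2 fold change -4.35, SE 0.46, adjusted p = 1.39e-08). MYL7, the atrial myosin light chain, fell by 2.81 and TNNI3, cardiac troponin I, rose by 2.86 on the same scale. The day 16 mean of TNNI3 was 108 in CD43- cells and higher, at 427, in CD43+ cells. Among 13 bone, cartilage and fat genes, ALPL and MATN3 fell by 4.12 and 3.30, and PPARG and CFD, which both had higher means in day 16 CD43+ cells, rose by 2.52 and 4.78.

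**Figure D3:**
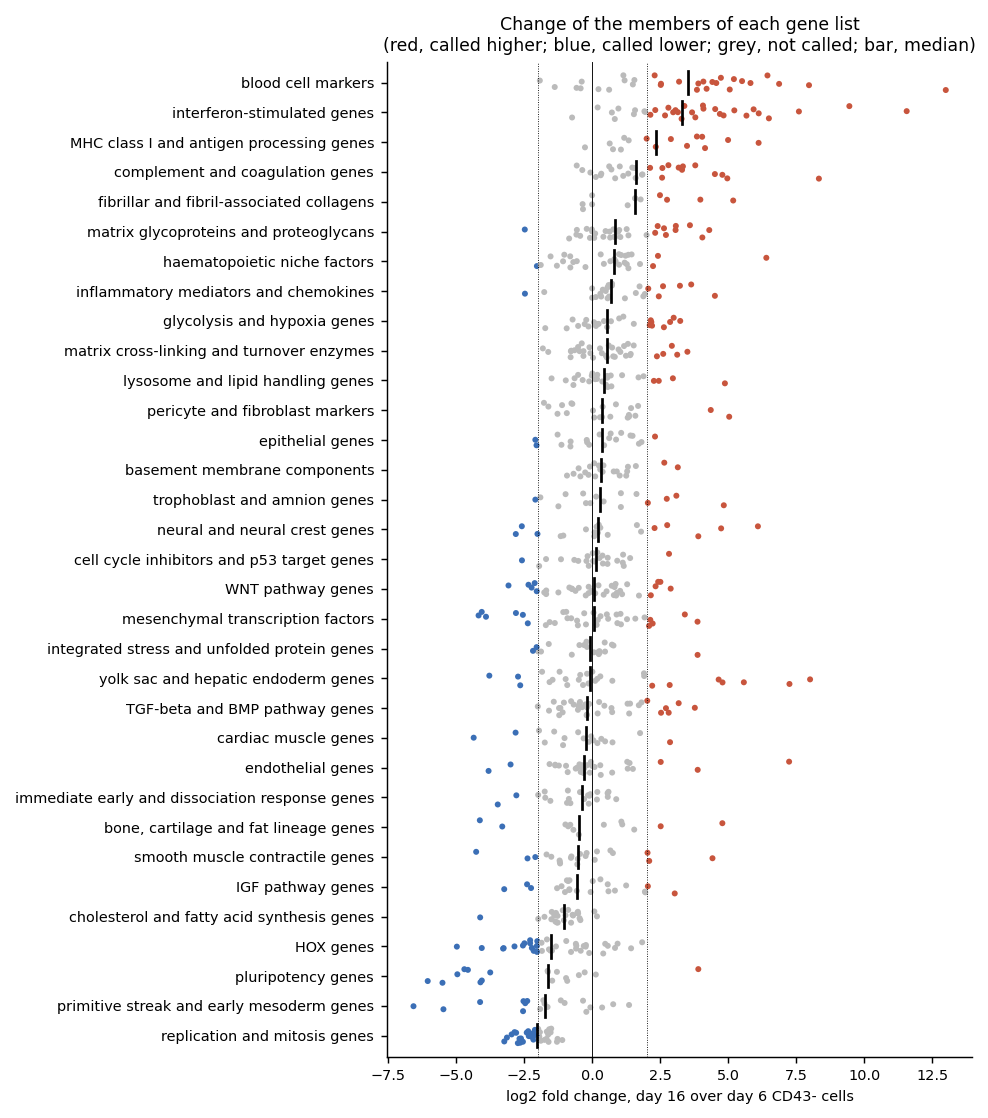
Log2 fold change of day 16 over day 6 CD43- cells for each tested member of 33 gene lists, ordered by their median (black bar), with red points called higher, blue points called lower, grey points not called and dotted lines at a fold of 4. Medians run from -2.04 for replication and mitosis genes to 3.52 for blood cell markers, around a median of -0.05 over all genes tested.

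Of 32 endothelial genes tested, 3 were called higher and 2 lower, beside 13.2% of all genes tested called in either direction. The median log2 fold change was -0.30, and it depended on the day 6 libraries: without replicate 1, which held most endothelial transcripts, the median was 0.20, and without replicate 3 it was -0.80. LYVE1, a hyaluronan receptor of lymphatic and yolk sac endothelium and of some macrophages, read 42, 12 and 6 at day 6 and 2324, 2124 and 2702 at day 16 (log2 fold change 7.23, SE 0.73, adjusted p = 5.91e-09). STAB2, a scavenger receptor of sinusoidal endothelium, read 58, 19 and 32 and then 251, 570 and 858 (3.88, SE 0.87, adjusted p = 4.61e-04). LYVE1 was called higher in CD43+ cells too, where its mean was 1023 at day 16. ETV2, the early factor of endothelial and blood fate, fell from 180, 134 and 208 to 8, 10 and 18, and SELE, endothelial selectin, fell from 604, 952 and 96 to 36, 60 and 48. KDR, the main VEGF receptor, read 48030, 48030 and 17338 and then 29000, 37166 and 37166, and SOX17, a factor of arterial and haemogenic endothelium, read 3750, 2183 and 798 and then 652, 594 and 652 (log2 fold change -1.56, not called). In CD43+ cells 19 of the 32 genes were called lower, with a median of -2.65, and the change differed in the direction of CD43- cells for 18.

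Genes of other cell types that the negative gate could hold were called in both directions. Of 28 yolk sac and hepatic endoderm genes, 7 were called higher and 3 lower, and the median log2 fold change was -0.06. AFP, alpha-fetoprotein, read 162, 354 and 445 at day 6 and 17368, 10084 and 15868 at day 16 (log2 fold change 5.57, SE 0.65, adjusted p = 6.01e-08). The apolipoproteins APOA4 and APOC3 read 4, 20 and 10 and then 3540, 1917 and 2880, and 0, 8 and 7 and then 806, 476 and 655. TF, transferrin, read 30, 26 and 19 and then 864, 552 and 738. These 4 genes shared an order at day 16, with replicate 1 highest and replicate 2 lowest, the reverse of the blood markers. AFP, APOA4 and APOC3 were called higher in CD43+ cells too, by 6.06, 6.69 and 4.75 on the log2 scale. Their day 16 CD43+ means were 367, 134 and 45.3, and the difference between the changes was not called. TF was not called in CD43+ cells (0.99). TTR, transthyretin, read 85, 227 and 380 and then 993, 473 and 844 without being called, and APOE read 9714, 11186 and 13998 and then 12826, 10820 and 11186.

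Among 16 trophoblast and amnion genes, 4 were called higher and 1 lower. GABRP, an amnion and epithelial GABA receptor subunit, read 398, 1122 and 656 and then 5779, 2675 and 5700, VTCN1 read 80, 142 and 192 and then 1527, 656 and 1386, and ITGB6 read 10, 22 and 11 and then 584, 225 and 534. In these 3 genes replicate 2 was lowest at day 16. IGFBP3 rose by 2.05 on the log2 scale, but fell short of the threshold when day 6 replicate 1 (1.94), day 6 replicate 2 (1.86) or day 16 replicate 3 (1.78) was left out. CDH1, the epithelial cadherin, read 708, 1292 and 1110 and then 4610, 5558 and 4846 (log2 fold change 2.31, SE 0.40, adjusted p = 1.88e-05), while the simple keratin KRT8 read 48061, 90700 and 90700 and then 18776, 17373 and 17373 (log2 fold change -2.04, SE 0.29), which was -1.89 without day 6 replicate 2 or replicate 3. Of 20 neural and neural crest genes, 5 were called higher and 3 lower. STMN2, a tubulin-binding protein of neurons, read 220, 102 and 136 and then 10446, 9902 and 9501 (log2 fold change 6.09, SE 0.64, adjusted p = 1.09e-08). ELAVL3, a neuronal RNA-binding protein, read 0, 0 and 3 and then 48, 32 and 46 (4.74, SE 0.82, adjusted p = 2.21e-05), and NES, the filament nestin, fell from 8793, 8494 and 5188 to 1050, 988 and 1098.

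Replication and mitosis genes fell together. Of 40 tested, 21 were called lower, each of the 40 had a log2 fold change below 0 (-3.23 to -1.10), and the median was -2.04, against -0.39 in CD43+ cells. CDC6, which loads the replicative helicase, read 396, 743 and 682 at day 6 and 64, 54 and 68 at day 16 (log2 fold change -3.23, SE 0.27, adjusted p = 2.16e-10). MCM7, a subunit of that helicase, read 3701, 5376 and 4822 and then 704, 712 and 788 (-2.64, SE 0.18, adjusted p = 1.12e-11). CENPE and CENPF, kinetochore proteins, fell by 2.96 and 2.85, and CCNB1, the mitotic cyclin, read 1034, 1730 and 1648 and then 350, 352 and 385, just inside a fold of 4 (-1.98, not called). The change was lower in CD43- than in CD43+ cells by the test of the difference for 16 of the 40 genes, against 19.2% of all genes tested called in either direction. CDKN1C, the cyclin-dependent kinase inhibitor p57, read 1485, 1633 and 2912 and then 13998, 13998 and 12826 (log2 fold change 2.82, SE 0.25, adjusted p = 5.00e-10) and was the member called higher among 24 cell cycle inhibitors and p53 target genes. CDKN2B, the inhibitor p15, fell from 238, 322 and 49 to 25, 24 and 27.

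Start windows of these genes were read for short motifs because the list moved together. RefSeq windows on GRCh38.p14, 300 bases each from 250 before to 50 after a start, were matched for 33 of the 40 genes, and a gene counted when any of its windows held the letters on either strand. CCAAT, the letters bound by the NF-Y factor, stood in 26 of the 33 (78.8%) and in 39.7% of all 27305 genes with a window. TTTGAA, the core of the cell cycle homology region, stood in 13 of the 33 (39.4%) and in 18.2% of all genes with a window, and both stood together in 12 of the 33 (36.4%) and in 8.37%. Among the 17 members called lower that had a window the shares were 70.6% for CCAAT, 35.3% for TTTGAA and 29.4% for both, each below that of the whole list. A match is a description of the letters and not of binding. The called genes with the largest falls and a TTTGAA before the start are shown 5' to 3' on the strand of the gene, with the motif or its reverse complement in capitals. They lie at chr10:92593090-92593119 for KIF11, at chr15:69414282-69414311 for KIF23, at chr15:40161034-40161063 for BUB1B and at chr10:128126435-128126464 for MKI67, the last on the minus strand and the others on the plus strand.
KIF11: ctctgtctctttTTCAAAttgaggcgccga
KIF23: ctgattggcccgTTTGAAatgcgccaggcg
BUB1B: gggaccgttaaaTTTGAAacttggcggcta
MKI67: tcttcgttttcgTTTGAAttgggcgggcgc

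The motif ended 22 bases before the start in KIF11, 49 in KIF23, 17 in BUB1B and 23 in MKI67. KIF11 and KIF23 are mitotic kinesins, BUB1B is a spindle checkpoint kinase and MKI67 is the proliferation antigen Ki-67.

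Genes of the earliest stages fell in part. Of 18 pluripotency genes, 8 were called lower and 1 higher, with a median log2 fold change of -1.63. NANOG read 83, 174 and 76 at day 6 and 3, 0 and 0 at day 16 (log2 fold change -6.04, SE 0.69, adjusted p = 4.62e-08), and POU5F1 read 712, 1328 and 618 and then 35, 26 and 34. Both are core factors of the undifferentiated state. UTF1 and PRDM14 read 73, 58 and 20 and 30, 49 and 18 at day 6 and were listed at 0 in the 3 day 16 libraries. The RNA-binding protein LIN28A read 4508, 7489 and 9242 and then 474, 336 and 428. SOX2, the member called higher, read 4, 2 and 1 and then 80, 27 and 43, and it belongs to the neural list as well. Of 19 primitive streak and early mesoderm genes, 7 were called lower: LHX1 read 280, 280 and 84 and then 1, 3 and 0, T, the factor brachyury, read 75, 65 and 16 and was then listed at 0, and APLNR, the apelin receptor, read 3301, 3819 and 7032 and then 668, 696 and 1342. MESP1 read 12, 4 and 2 and was listed at 0 at day 16, and its call was lost without day 6 replicate 1.

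HOX genes, which record position along the body axis, were called lower in 14 of 38 cases, with a median of -1.50. The median in CD43+ cells was 0.00, but some members were near 0 in those cells on both days. HOXD9 read 106, 142 and 15 and then 1, 0 and 3 (log2 fold change -4.97, SE 0.89, adjusted p = 3.70e-05), HOXD4 read 88, 127 and 10 and then 4, 3 and 6, and HOXB9 read 1004, 1014 and 541 and then 184, 82 and 182. HOXD12 was listed at 0 at day 16 against 10, 25 and 2, and its call was lost without day 6 replicate 2 (adjusted p = 0.0691). Day 6 replicate 3 was the lowest of its group in each of these 4 genes. HOXB3, with the highest mean of the list, read 1323, 1217 and 1862 and then 2812, 2812 and 2652 (log2 fold change 0.93, not called). HOXD9 read 175 ± 134 at day 9 and 116 ± 114 at day 12 (SD, n = 3), a spread as wide as the means. In CD43+ cells the means of HOXD9, HOXD4 and HOXD12 were 2 or lower on both days, so no fall could be seen in them. HOXB9 was called lower in CD43+ cells (log2 fold change -3.92), and HOXB3 was not called there (-0.41). The CD43+ median is therefore not a measure of steady HOX levels.

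The other large falls included enzymes, ligands and transcription factors. CYP1B1, a cytochrome P450 induced through the aryl hydrocarbon receptor, read 9233, 7154 and 1506 at day 6 and 73, 82 and 86 at day 16 (log2 fold change -5.84, SE 0.57, adjusted p = 3.43e-09), with means of 3453 at day 9 and 1412 at day 12. HES5, a Notch target, read 128, 210 and 62 and then 1, 0 and 0, and FGF19, an endocrine fibroblast growth factor, read 64, 122 and 204 and then 1, 6 and 0. At day 12 the mean was still 113 for HES5 and was 1.67 for FGF19. The activity-dependent factor NPAS4 read 103, 94 and 196 and then 1, 1 and 0. The nuclear receptor NR4A3 read 332, 224 and 350 and then 6, 1 and 10, with a mean of 1243 at day 12. KRT81, SFT2D3, TRPA1 and MUC6 fell as well, with log2 fold changes of -6.79, -6.43, -5.25 and -5.24. MTRNR2L6, a nuclear copy of mitochondrial ribosomal RNA sequence, read 625, 492 and 302 and then 12, 10 and 10, with a mean of 1139 at day 12. Its reads can also match the mitochondrial gene and its other copies. Of 22 immediate early and dissociation response genes, EGR3 and FOSL1 fell by 3.47 and 2.78, while FOS read 13287, 13963 and 18714 and then 17284, 25776 and 25776 without being called. These falls were not steady: EGR3 went from a mean of 764 at day 6 to 1581 at day 12, and FOSL1 from 127 to 1315. The median of this list was -0.37 in CD43- and 2.03 in CD43+ cells, and the change of 13 of the 22 was lower in CD43- cells by the test of the difference.

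**Figure D4:**
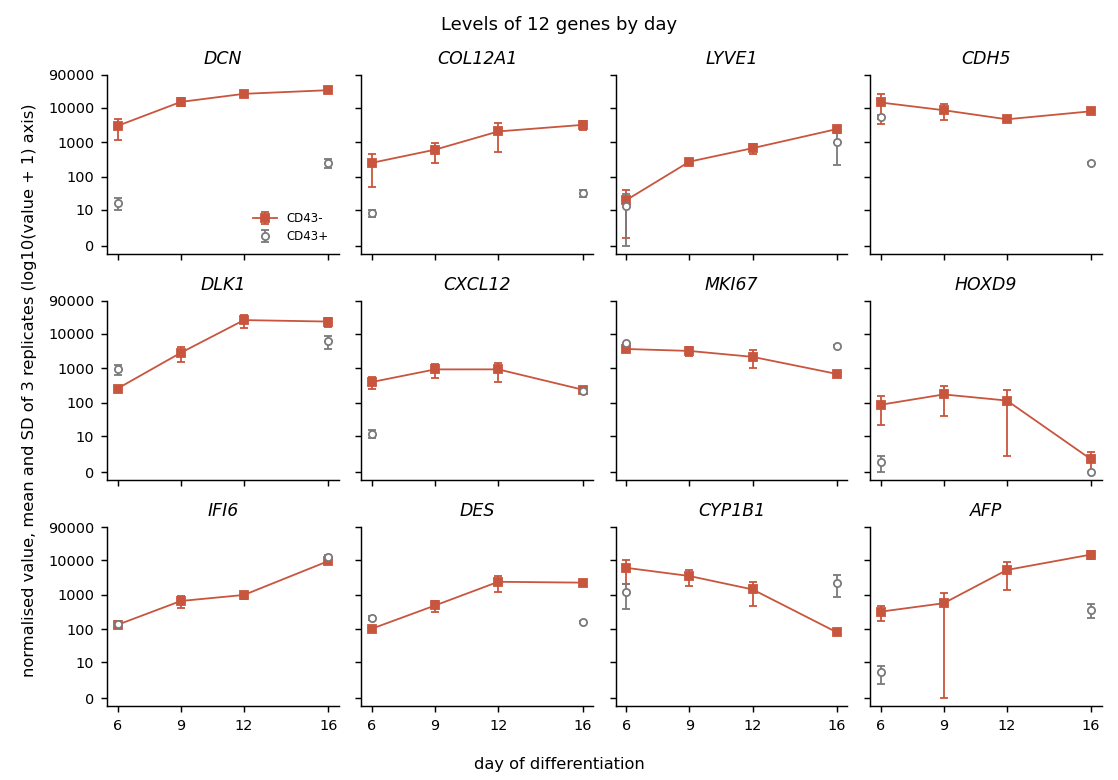
Normalised values of 12 genes on a log10(value + 1) axis against day of differentiation, with red squares and lines for CD43- cells at days 6, 9, 12 and 16 and grey open circles for CD43+ cells at days 6 and 16 (mean and SD of 3 replicates). HOXD9 has wide error bars at days 6, 9 and 12, and DLK1 reaches its day 16 range by day 12.

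Interferon-stimulated genes rose in 24 of 33 cases, with a median log2 fold change of 3.29, and 32 of the 33 had a log2 fold change above 0. OAS2, which senses double-stranded RNA, read 6, 2 and 8 at day 6 and 878, 1490 and 1040 at day 16 (log2 fold change 7.59, SE 0.78, adjusted p = 8.21e-09). MX1, an antiviral GTPase, read 14, 20 and 10 and then 1118, 1796 and 1256 (6.49, SE 0.45, adjusted p = 1.04e-11), against a mean of 5559 in day 16 CD43+ cells. The factor IRF7 read 288, 263 and 204 and then 860, 1095 and 956, close to the fold threshold, and BST2, a membrane tether of virus particles, read 4285, 3538 and 6578 and then 9485, 9230 and 8494. Day 12 means were 46.7 for OAS2, 208 for MX1, 415 for IRF7 and 2729 for BST2. IFI44L and IFI44 averaged 78.0 and 15.3 on that day. Most of the rise of these genes therefore lay after day 12, a span over which the gate also changed. The rise of the list was also present in CD43+ cells, where 29 of the 33 were called higher with a median of 4.96, and the change was smaller in CD43- cells by the test of the difference for 12 genes.

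Replicate 2 held the highest day 16 value for 22 of the 24 interferon-stimulated rises (91.7%), against 47.7% of all genes called higher. The day 16 CD43+ mean exceeded the CD43- mean by over 4-fold for 5 of the 24 and lay below it for 5. For IFI44L the CD43- mean was 3086 ± 899 (SD, n = 3) and the CD43+ mean 2751, and for IFI44 they were 729 and 842. The part of admixed blood cells in these rises was not tested.

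Antigen presentation genes rose beside them. Of 15 MHC class I and antigen processing genes, 9 were called higher, with a median log2 fold change of 2.34 in CD43- and 3.75 in CD43+ cells. PSMB8, an immunoproteasome subunit, read 2, 1 and 2 and then 130, 246 and 184 (log2 fold change 6.11, SE 0.41, adjusted p = 5.35e-12). TAP1, the peptide transporter, read 3, 14 and 19 and then 300, 417 and 307, NLRC5, the transactivator of class I genes, read 8, 8 and 11 and then 136, 222 and 176, and ERAP2, a peptide-trimming enzyme, read 6, 2 and 4 and then 69, 99 and 66. B2M, the light chain of class I molecules, read 2103, 1846 and 2610 and then 13994, 18748 and 15836 (log2 fold change 2.89, SE 0.15, adjusted p = 5.46e-14) and was at the highest possible value in day 16 CD43+ cells. Replicate 2 was highest in 8 of the 9 rises (88.9%).

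The interferon-stimulated genes were read for GAAANNGAAA, the core of the interferon-stimulated response element, in the same RefSeq windows and on both strands. The letters stood in 17 of the 23 genes with a window (73.9%), in 9 of 12 antigen processing genes (75.0%) and in 4.38% of all 27305 genes with a window. Among members called higher with a window the shares were 76.5% and 75.0%, near those of the whole lists. The first list is named for its response to interferon, so its high share comes with the choice of genes and does not describe these cells. Here too a match describes letters and not binding. The stretches below belong to called genes with large rises, with the motif or its reverse complement in capitals, 5' to 3' on the strand of the gene. They lie at chr1:78620365-78620394 for IFI44L and chr1:78649759-78649788 for IFI44 on the plus strand, and at chr1:27672266-27672295 for IFI6 and chr2:162318686-162318715 for IFIH1 on the minus strand.
IFI44L: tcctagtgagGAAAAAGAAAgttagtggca
IFI44: gggcacactgagTTTCAGTTTCctttctct
IFI6: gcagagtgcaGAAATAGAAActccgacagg
IFIH1: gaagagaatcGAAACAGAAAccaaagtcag

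The letters ended 63 bases before the start in IFI44L, 8 in IFI44, 83 in IFI6 and 11 in IFIH1. IFI6 is a mitochondrial interferon-induced protein and IFIH1 encodes MDA5, a sensor of double-stranded RNA.

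Secreted immune proteins rose as well. Of 29 complement and coagulation genes, 12 were called higher, with a median log2 fold change of 1.60. C3, the central complement component, read 40, 34 and 84 and then 1043, 1099 and 1253 (log2 fold change 4.51, SE 0.49, adjusted p = 1.98e-08), above its mean of 287 in day 16 CD43+ cells, and C2 read 7, 1 and 14 and then 207, 188 and 185, below the CD43+ mean of 1292. TFPI, the tissue factor pathway inhibitor, read 18772, 15868 and 7163 and then 8510, 8800 and 8800. Of 26 inflammatory mediators, 6 were called higher and 1 lower. PTGES, a prostaglandin E synthase, read 26, 32 and 52 and then 874, 707 and 899 (log2 fold change 4.51, SE 0.36, adjusted p = 1.18e-10), whereas PTGS1, the constitutive cyclooxygenase, read 106, 84 and 82 and then 638, 1173 and 822 and was higher in day 16 CD43+ cells (5824). IL6 was called but stayed low, at 19, 14 and 44.

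Few haematopoietic niche factors were called. Of 29 tested, 3 were called higher and 1 lower, near the 13.2% called over all genes tested. The median log2 fold change was 0.82. DLK1, a Notch-family ligand made by fetal liver and aortic stroma, read 222, 270 and 289 at day 6 and 22830, 15858 and 29015 at day 16 (log2 fold change 6.40, SE 0.49, adjusted p = 5.98e-11), with means of 2823 at day 9 and 24901 at day 12. LIF, a cytokine of the IL-6 family, read 18, 20 and 37 and then 124, 110 and 166, below its day 12 mean of 1511. ANGPT2, the context-dependent TIE2 ligand, fell from 900, 400 and 412 to 107, 124 and 162, a call lost without day 6 replicate 1 (-1.65) or day 16 replicate 1 (-1.89) or replicate 2 (-2.00). EPO was called at values of 10, 10 and 12 against 2, 0 and 4, and lost its call without day 6 replicate 2. KITLG, the ligand of KIT, and CXCL12, the stromal chemokine that retains blood progenitors, had log2 fold changes of -1.53 and -0.69 and were not called.

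Signalling pathways held changes of single ligands and antagonists. Of 37 TGF-beta and BMP pathway genes, 6 were called higher, beside 6.91% of all genes tested called higher and 13.2% in either direction. The median was -0.19. The ligand BMP5 read 290, 295 and 754 and then 3037, 2809 and 2640 (log2 fold change 2.81, SE 0.59, adjusted p = 2.37e-04). BMP2 read 786, 1020 and 1222 and then 276, 193 and 288, just short of the threshold at -1.99, and INHBA, an activin subunit, lost its call without day 6 replicate 3 (adjusted p = 0.0818). Of 38 WNT pathway genes, 5 were called higher and 5 lower. The WNT antagonists DKK2 and DKK1 read 32, 88 and 34 and then 580, 163 and 434, and 248, 344 and 107 and then 1466, 878 and 1116, although DKK1 fell just short (1.95) without day 6 replicate 3. RSPO1, an enhancer of WNT signalling, rose by 2.51, and FRZB, a secreted antagonist, read 3304, 3063 and 9499 and then 20424 in each library, with estimates of 1.92 and 1.87 without day 6 replicate 1 or 2. FZD10, a WNT receptor, fell from 413, 336 and 211 to 32, 26 and 55.

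Among 23 IGF pathway genes, 2 were called higher and 3 lower. PAPPA2, a protease that releases IGF from its binding proteins, read 19, 46 and 43 and then 376, 202 and 296 (log2 fold change 3.03, SE 0.46, adjusted p = 3.87e-06). IGF1 itself read 38, 105 and 20 and then 10, 4 and 10 and lost its call without day 6 replicate 2 (adjusted p = 0.101) or day 16 replicate 2 (0.068), and IGFBP1 lost its call without day 6 replicate 1 (0.0508). H19, the imprinted RNA next to IGF2, was at the highest value in the 3 day 6 libraries and read 37166 in each day 16 library, so its log2 fold change of -1.29, which was not called, is compressed.

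Metabolic genes differed by pathway. Of 25 glycolysis and hypoxia genes, 8 were called higher, with a median of 0.55. SLC2A1, the glucose transporter GLUT1, read 10787, 11160 and 25776 and then the highest value of 90700 in each day 16 library, ENO2, an enolase, read 438, 451 and 599 and then 4844, 4844 and 4241, and NDRG1, a hypoxia-induced gene, read 1404, 1410 and 2020 and then 11512, 14688 and 12018 (log2 fold change 3.00, SE 0.30, adjusted p = 5.11e-09). PFKFB3, which sets the rate of glycolysis, read 2963, 3470 and 5173 and then 994, 1264 and 1180 (-1.72, not called). Of 25 cholesterol and fatty acid synthesis genes, 23 had a log2 fold change below 0 and the median was -1.03, but 24 of the 25 were not called. HMGCS1, an early enzyme of the pathway, read 8512, 10085 and 10446 and then 2664, 2212 and 2480 (-1.98, not called). Of 20 integrated stress and unfolded protein genes, 1 was called higher and 2 lower, beside 6.91% and 6.26% of all genes tested. VLDLR, a lipoprotein receptor, was the member called higher, with 180, 281 and 158 and then 2788, 3222 and 2842. PSAT1 and CHAC1 of that list were called lower, by 2.17 and 2.04, and both calls were lost without a library (-2.00 for PSAT1 without day 6 replicate 3, and -1.72 for CHAC1 without day 6 replicate 1 or -1.97 without day 16 replicate 3). Of 26 lysosome and lipid handling genes, 4 were called, each higher, beside 13.2% of all genes tested called in either direction. GPNMB, a lysosomal glycoprotein, read 32, 54 and 46 and then 1494, 1224 and 1180. PLTP, the phospholipid transfer protein, read 1560, 1742 and 2664 and then 9202, 9860 and 8946. CTSS and CD36, both high in CD43+ cells, reached 12 to 20 and 20 to 25.

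The change of CD43- cells was set beside that of the CD43+ cells sorted from the same days, where 4205 genes (21.3%) were called, 2084 higher and 2121 lower. The 2 changes share no library. Of the 1368 genes called higher in CD43- cells, 651 were also called higher in CD43+ cells, which is 47.6% of the CD43- rises and 31.2% of the CD43+ rises. Of the 1239 called lower, 469 were also called lower in CD43+ cells, or 37.9% of the CD43- falls and 22.1% of the CD43+ falls. Calls in opposite directions numbered 56 among the rises and 22 among the falls. The test of the difference between the changes, with the same thresholds, called 3798 genes (19.2%). By list, fibrillar collagens, basement membrane components, endothelial genes and mesenchymal transcription factors were those whose CD43+ median lay furthest below the CD43- median, and immediate early, interferon-stimulated and replication genes were those whose CD43+ median lay furthest above.

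**Figure D5:**
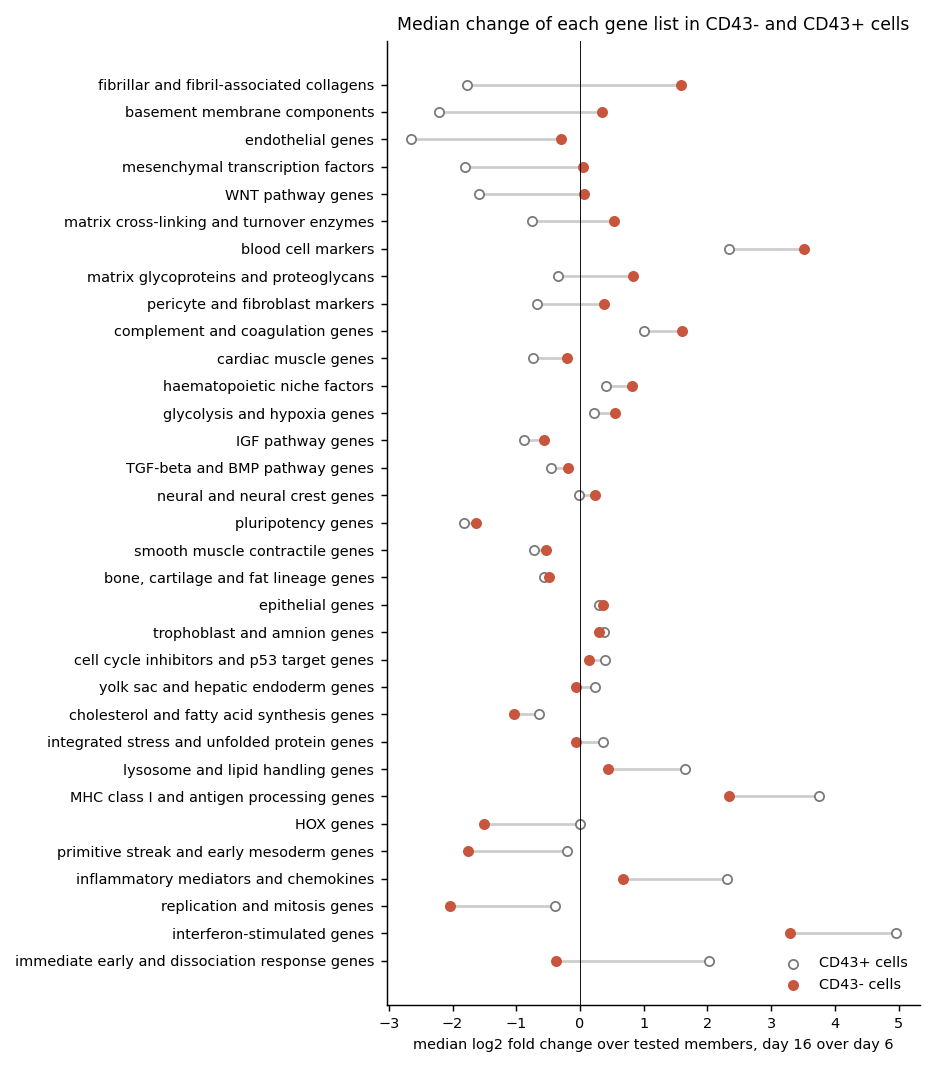
Median log2 fold change of day 16 over day 6 over the tested members of 33 gene lists, with filled red circles for CD43- cells and open grey circles for CD43+ cells, joined by a line. Fibrillar collagens lie at 1.58, a value compressed by the ceiling, in CD43- and -1.78 in CD43+ cells, and immediate early genes at -0.37 and 2.03.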

How the data were processed

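RNA of sorted H1 cells was sequenced, and per the labels and the methods the authors aligned reads to the human genome (build hg38 in the submitters' processing notes, which list bcl2fastq, STAR 2.7, Bowtie2 and RSEM) and counted them per Ensembl gene. The deposited values are a normalised score: counts corrected by the authors for GC content within and between samples with EDASeq and rounded. The sorted values of the 34 samples are identical, so depth is unknown, precision from depth cannot be given, and no count model was used.

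From these values log2(value + 1) was fitted with limma 3.58.1 in R 4.3.3 (linear model, mean-variance trend) over 33 replicated samples of 11 populations, for genes that reached 10 or more in 3 or more of these samples. Genes with adjusted p below 0.05 and a fold change above 4 were called. The samples and gene lists were chosen with earlier results of these data known. Named genes were the sort markers, the protein-coding calls of largest change (12 up and 12 down) with no overlap between groups and a mean of 100 or more in the higher group, and in each list up to 4 called members of largest change, the member of highest mean and the uncalled member of largest change, other members being given as values; a few genes that this rule names are not reported here. Gene types come from GENCODE 29 and start windows from RefSeq (GRCh38.p14). The fitting steps were tested on simulated data. Alternatives changed the pseudocount, filter, scaling, samples fitted, variance estimate, fold threshold and replicates. The authors' own DESeq2 comparisons were not used.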

Additional observations from a re-analysis of the deposited data

Results flagged for a closer look

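The change from day 6 to day 16 differed between CD43- and CD43+ cells, by limma's test of the difference with the thresholds used throughout (adjusted p below 0.05 and a ratio of folds above 4), for 14 of the 26 sort markers and largest rises and falls, against 19.2% of all genes tested. These genes were chosen for a large change in CD43- cells, which is itself a term of the difference, so the count is a description. Values are the log2 fold change of CD43- cells minus that of CD43+ cells. The difference was positive for SERPINE3 (5.89), whose CD43+ mean went from 0.333 to 19.3 while the CD43- mean went from 5.33 to 5821, and for PTGDS (2.13). It was also positive for SPN (3.71), which read 7183 on average in day 6 and 2668 in day 16 CD43+ cells, and for PF4 (3.07), where CD43+ cells already read 122 at day 6.

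The difference was negative for PTPRC (-8.01), with CD43+ means of 3.00 and 12655, and for F13A1 (-4.96), with CD43+ means of 2.67 and 29607. Among the falls it was negative for CYP1B1 (-6.80), whose CD43+ mean was 1189 at day 6 and 2203 at day 16, and for FGF19 (-6.00), NANOG (-5.91), NR4A3 (-5.06), MUC6 (-4.72), TRPA1 (-4.34), HES5 (-3.56) and SFT2D3 (-3.41). In FGF19, NANOG, TRPA1 and HES5 the CD43+ mean at day 6 was 13.7 or lower, so the difference there has a low starting value on the CD43+ side.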

How the results depend on the processing

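The count of genes called in CD43- cells (2607) was 1330 with a pseudocount of 10 (768 higher, 562 lower) and 6250 at a fold above 2 (3025 higher, 3225 lower). With a filter of at least 100 in at least 3 samples 808 genes were called lower, where fewer genes were tested (14877). The difference between CD43- and CD43+ changes was called for 6595 genes at a fold above 2. Leaving out each replicate in turn gave 2521 to 2797 calls. Quantile normalisation left the values as they were, and median-of-ratios scaling gave 2616 calls (1417 higher, 1199 lower). Leaving out genes over 4-fold higher in day 16 CD43+ than CD43- cells, an alternative chosen after seeing the data, left 997 rises. With a pseudocount of 10, 16 of 193 named values lost their call, and these were genes of low values or near the fold threshold (PTPRC, MYH11, PPARG, KRT7, MESP1, HOXD12, IL6, EPO, ANGPT2, GDF5, IGF1, IGFBP6, CA9, CTSS, CD36 and CHAC1). With this pseudocount the medians of 5 lists moved by more than their spread between replicates, to 1.88 for blood cell markers, 2.74 for interferon-stimulated genes, 1.99 for antigen processing genes, 0.36 for niche factors and -0.63 for primitive streak genes. With a pseudocount of 0.1, KRT7, IL6, INHBA, DKK2, RSPO1 and IGFBP1 lost theirs. Fitting the 4 CD43- populations alone ended the calls of HOXD12, INHBA, IGF1 and CD36.

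The replicate block, fitted to the populations compared only, gave 2314 calls for CD43- cells and 3712 for the difference. Deviations from the group means correlated at -0.078, -0.053 and -0.054 between equal numbers of the 2 days, and no library correlated best with its own number. With 3 libraries per day these values cannot show whether equal numbers came from the same differentiation run, and the labels give a number only. Under the block 9 of 193 named values lost their call, those of SPN, COL15A1, SELE, KRT7, CDKN2B, HOXD4, DKK2, IGFBP1 and IGF1. Of the named genes, 3 uncalled values changed sign: COL4A1 (0.30) ranged from -0.31 to 0.60, KDR (0.00) from -0.49 to 0.25 and APOE (0.01) from -0.11 to 0.15 as each replicate was left out in turn.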
